A study of Mus musculus with 4 samples.

Results

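Malat1, Neat1 and 7 noncoding host genes of small nucleolar RNAs (Gas5, Snhg1, Snhg3, Snhg5, Snhg6, Snhg8 and Snhg12) were chosen by symbol and followed through 4 libraries of mouse CD8 T cells taken from MC38 colon carcinomas. All 9 were found among 45773 genes, and all 9 were measured, meaning that their TPM, a length-scaled share of all transcripts in a library, averaged 1 or more, as were 12570 genes in all. The gain experiment used CD8 T cells of Pmel-I mice, whose transgenic receptor recognises the melanocyte antigen gp100. They carried either Klf4 or the retroviral vector MigRI, entered Rag2 KO hosts, which make no T or B cells of their own, with MC38-gp100 tumours on day 7, and were recovered on day 15 as GFP-positive infiltrating cells. In the loss experiment, PD1-positive CD8 T cells were recovered on day 14 from MC38 tumours of mice labelled Klf4 cKO (below, the cKO-labelled library) and of control (WT) mice. The label does not give the Cre driver or the deleted part of Klf4, and neither ages, strains nor pooling of animals are stated. Every group held 1 library made from 10000 to 20000 cells, so no difference has a replicate check and no p-value is given. Read depth cannot be recovered from TPM, and no counting error is attached to any value.

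Malat1 is a long nuclear RNA that collects in nuclear speckles beside splicing factors, and Neat1 is the scaffold RNA of paraspeckles, nuclear bodies built around the RNA-binding proteins Nono, Sfpq and Pspc1. The snoRNA host genes carry small nucleolar RNAs in their introns. These guide ribose methylation (box C/D type) or pseudouridylation (box H/ACA type) of ribosomal RNA, while the spliced exons form a noncoding RNA that is in many cases removed by nonsense-mediated decay. Several hosts, Gas5 first among them, begin with a pyrimidine tract like that of ribosomal protein mRNAs (a TOP start), and Gas5 was named for its accumulation in growth-arrested cells.

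The RefSeq promoters of the hosts are shown so that the starts of these genes, which the choice by name did not use, can be compared. RefSeq (GRCm38.p6) held a start for 7 of the 9 genes, in 8 windows, with none for Neat1 and Snhg6. Each line runs 5′ to 3′ on the gene's own strand from 40 bases before the annotated start to 20 bases into the transcript. Capitals mark the letters TATA lying wholly between 40 and 20 bases before the start, and runs of 5 or more C or T that begin within 10 bases of it. The minus-strand windows are Malat1 at chr19:5802653-5802712, Snhg3 at chr4:132353667-132353726, Snhg5 at chr9:88522878-88522937 and Snhg8 at chr3:123508317-123508376. The plus-strand windows are Gas5 at chr1:161034561-161034620 and chr1:161035126-161035185, Snhg1 at chr19:8723447-8723506 and Snhg12 at chr4:132308638-132308697.
Malat1: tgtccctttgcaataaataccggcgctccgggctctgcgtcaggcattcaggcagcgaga
Gas5 (upstream start): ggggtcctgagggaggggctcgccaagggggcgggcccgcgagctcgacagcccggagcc
Gas5 (downstream start): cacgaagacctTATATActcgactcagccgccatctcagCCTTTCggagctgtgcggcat
Snhg1: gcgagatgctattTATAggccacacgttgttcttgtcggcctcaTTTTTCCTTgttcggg
Snhg3: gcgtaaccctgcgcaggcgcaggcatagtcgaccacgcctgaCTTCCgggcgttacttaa
Snhg5: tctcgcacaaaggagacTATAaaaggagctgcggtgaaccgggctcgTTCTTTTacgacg
Snhg8: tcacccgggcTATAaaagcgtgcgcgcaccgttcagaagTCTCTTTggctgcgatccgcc
Snhg12: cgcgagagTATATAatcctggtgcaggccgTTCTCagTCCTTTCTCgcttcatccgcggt
TATA reads the same on both strands, and the C or T run was sought only on the gene's own strand, as printed. Of the 7 windows of the 6 hosts, 5 held TATA in the stated place and 6 held the pyrimidine run, against 5.49% and 36.7% of all 32851 RefSeq promoters. The downstream Gas5 start, Snhg1, Snhg5, Snhg8 and Snhg12 held both, as did 2.18% of all promoters. Snhg3 held only the run. Malat1 and the upstream Gas5 start held neither. These motifs were chosen after the sequences were read, and a match is only a match of letters.

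Of the libraries themselves, 13170 genes reached 1 TPM in the Klf4-transduced library and 11011 in MigRI, against 11937 in the cKO-labelled library and 10542 in control (WT). Genes with a longest transcript under 1000 nucleotides took 21.7% of all TPM in the Klf4-transduced library and 38.8% in MigRI, and 41.3% in the cKO-labelled library and 54.9% in control. The typical gene was not level, and the median difference of log2(TPM + 1) over measured genes was 0.79 for Klf4 over MigRI and 0.74 for Klf4 cKO over control. Differences of the 9 RNAs are therefore given as deposited and relative, that is, minus this median, and counts in related lists are given both ways. Klf4, a zinc finger transcription factor, stood at 26.0 TPM in the Klf4-transduced library and 8.69 TPM in MigRI, a difference of 1.48 as deposited and 0.69 relative. It stood at 9.28 TPM in the cKO-labelled library and 7.52 TPM in control, a difference of 0.27 as deposited and -0.47 relative, so its sign there turned with the scaling. The gene-level value does not check the cKO label. All 10 CD8 T cell markers were measured. They summed to 5813 TPM in the Klf4-transduced library against 24626 TPM in MigRI, and to 18556 TPM in the cKO-labelled library against 7972 TPM in control. The 12 macrophage markers, none of them at 0, summed to 5248 TPM with Klf4 against 997 TPM in MigRI, and to 1232 TPM in the cKO-labelled library against 370.3 TPM in control. The 10 fibroblast markers, likewise none at 0, summed to 1450 TPM with Klf4 against 150 TPM in MigRI, and to 261 TPM in the cKO-labelled library against 31.7 TPM in control. The 10 mast cell markers summed to 113 TPM with Klf4 against 2.13 TPM in MigRI, with 1 and 6 of them listed at 0, and to 100.1 TPM in the cKO-labelled library against 0.278 TPM in control, with 1 and 9 listed at 0. Erythroid markers summed to 789 TPM with Klf4, 974 TPM in MigRI, 2.63 TPM in the cKO-labelled library and 7.35 TPM in control. In the same order B cell markers summed to 70.2, 73.5, 24.4 and 7.05 TPM. Dendritic cell markers summed to 5.89, 2.29, 9.60 and 12.7 TPM, and tumour epithelial markers to 4.84, 2.03, 7.86 and 3.44 TPM. What part such cells had in the values below was not tested, and less RNA per cell cannot be told apart from fewer cells of a type.

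Levels of the 9 RNAs, which TPM scales per transcript length within a library, were dominated by Malat1 and Gas5. How fully RNAs without an ordinary poly(A) tail were captured was not tested. Together Malat1 and Gas5 made up 75.7% of the 9 RNAs' TPM in the Klf4-transduced library and 79.7% in MigRI. They made up 87.8% in the cKO-labelled library and 89.9% in control. Gas5 was the highest of the 9 in the gain experiment and Malat1 in the loss experiment. Snhg6 was the third in every library, Neat1 was the last in every library, and Snhg8 and Snhg12 held the places just above Neat1. The order of Snhg1, Snhg3 and Snhg5 differed between libraries. Without replicates it cannot be said which neighbours in this order differ beyond their spread. The summed TPM of the 9 was 1733 with Klf4 against 2196 in MigRI, and 3221 in the cKO-labelled library against 4459 in control.

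**Figure D1:**
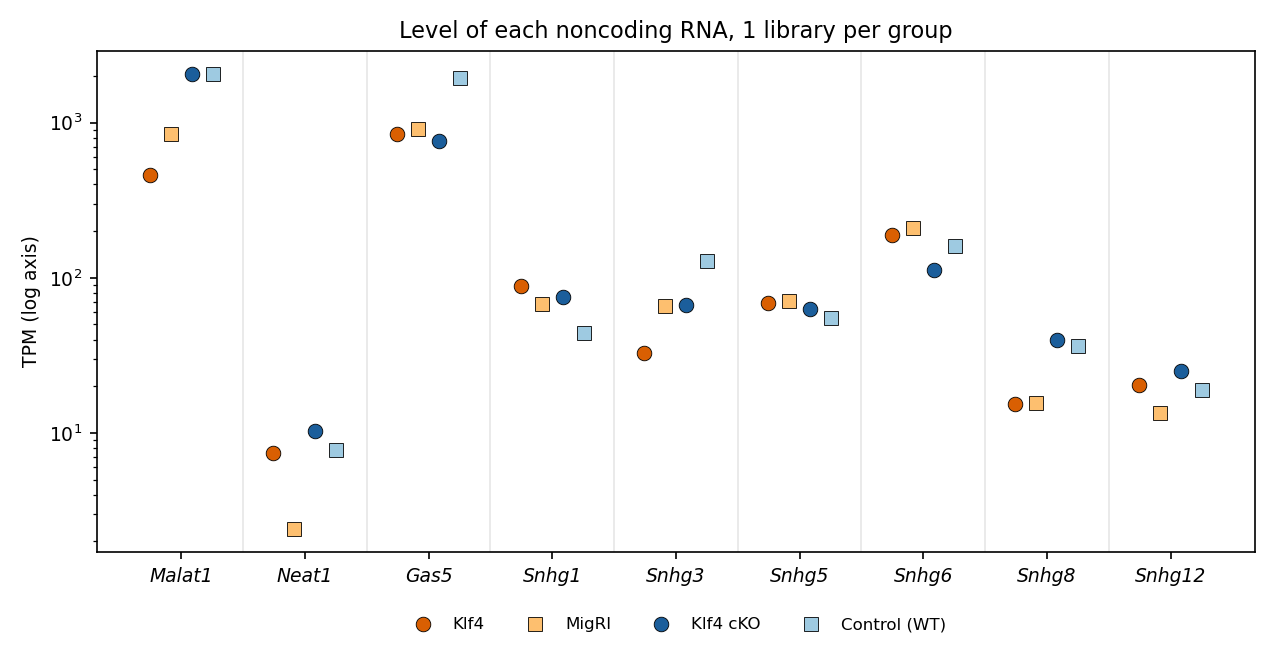
TPM of the 9 noncoding RNAs (log axis), 1 point per library; circles are the Klf4-transduced and Klf4 cKO libraries and squares are MigRI and control (WT). Malat1 and Gas5 lie between 461 and 2073 TPM, and Neat1 between 2.39 and 10.3 TPM.

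Malat1 (ENSMUSG00000092341.3), an RNA of 6983 nucleotides at GRCm38 chr19:5795690-5802672 on the minus strand, was lower with Klf4 and level in the loss experiment. It had 461 TPM in the Klf4-transduced library, against 841 TPM in MigRI. That is 1.82-fold lower, a difference of -0.87 as deposited and -1.66 relative, so that only 11.96% of measured genes had a lower difference. The sign was negative under all 10 other settings tried, from -1.87 to -0.57. A pseudocount cannot turn a sign, and centring on a positive median only lowers a negative difference. Such settings, here and for the genes below, were bound to keep a negative sign. Malat1 had 2063 TPM in the cKO-labelled library, against 2073 TPM in control (WT). The difference was -0.0065 as deposited and -0.74 relative, so its direction rests on the scaling. It was negative under 9 of 10 other settings and positive, at 0.40, under the remaining one. By rank among all genes Malat1 was at position 404 with Klf4 and 233 in MigRI, and at 60 in the cKO-labelled library and 90 in control. Ranks in tables of different composition describe standing only.

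The mature Malat1 RNA ends without an ordinary poly(A) tail, and the SMART-seq v4 kit primes cDNA from oligo(dT). The longest run of A encoded in the annotated transcript is therefore shown. The longest Malat1 transcript holds 1 run of 10 or more A. It lies at positions 6674 to 6685 of the 6983 nucleotides, towards the 3′ end. Capitals show it within positions 6650 to 6709 (chr19:5795964-5796023, minus strand, GENCODE vM21). Where the mature RNA ends was not mapped, and the printed stretch may run past that end.
Malat1-201: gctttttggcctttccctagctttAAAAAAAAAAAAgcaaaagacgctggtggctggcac
The longest Neat1 transcript, at 20771 nucleotides, has no such run, and its longest run of A counts 7 bases. Among the hosts only Snhg12 has a run of 10 or more, which counts 12 bases, and the longest runs of the other 6 hosts count 4 to 7. Whether priming at such runs differed between libraries was not tested.

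Neat1 (ENSMUSG00000092274.3, chr19:5824708-5845478, minus strand) was higher with Klf4. It had 7.46 TPM in the Klf4-transduced library, against 2.39 TPM in MigRI, 3.13-fold higher. The difference was 1.32 as deposited and 0.53 relative. Higher by at least 2-fold as deposited was also the state of 43.7% of measured genes, so the call is no result about Neat1. The sign was positive under all 10 other settings, from 0.32 to 1.60, but at least 2-fold in 4 of them. Neat1 had 10.3 TPM in the cKO-labelled library, against 7.72 TPM in control, a difference of 0.38 as deposited and -0.36 relative. Its sign there turned with the scaling, being negative under 6 of 10 other settings. The 4 annotated Neat1 transcripts include a short one and the full-length one, which share their first bases, and a gene-level TPM does not separate them. Malat1 was 61.9 times the level of Neat1 with Klf4 and 353 times in MigRI, against 200.03 times in the cKO-labelled library and 269 times in control.

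Frmd8, a coding gene 4224 bases from Neat1, had 24.6 TPM with Klf4 and 3.73 TPM in MigRI, a difference of 2.43 as deposited and 1.64 relative. It was thus higher in the library in which Neat1 was higher and Malat1 lower. Frmd8 had 9.96 TPM in the cKO-labelled library and 6.80 TPM in control, a difference of 0.49 as deposited and -0.25 relative, so its direction there turned with the scaling.

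Gas5 (ENSMUSG00000053332.13, chr1:161034422-161038539, plus strand), with 25 annotated transcripts and 9 annotated snoRNA genes within its bounds, was lower in the cKO-labelled library. It had 765 TPM there, against 1935 TPM in control (WT). That is 2.53-fold lower, a difference of -1.34 as deposited and -2.08 relative, and 4.17% of measured genes had a lower difference. It was the only one of the 9 past 2-fold in that direction as deposited, a state shared by 6.92% of measured genes. The difference was negative under all 10 other settings, from -2.46 to -0.95, and past 2-fold in 9 of them. Gas5 had 851 TPM with Klf4, against 910 TPM in MigRI, a difference of -0.10 as deposited and -0.89 relative. Control (WT) was the high library, and the other 3 lay between 765 and 910 TPM. Gas5 made up 66.7% of the TPM of the 7 hosts in the cKO-labelled library, against 81.3% in control, and 67.3% both with Klf4 and in MigRI.

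Snhg3 (ENSMUSG00000085241.7, chr4:132348014-132353686, minus strand), host of the H/ACA snoRNAs Snora73a and Snora73b, was below its comparison library by a similar amount in both experiments. It had 32.6 TPM with Klf4, against 66.2 TPM in MigRI, and 67.2 TPM in the cKO-labelled library, against 128 TPM in control. The differences were -0.997 and -0.92 as deposited, each just short of the 2-fold call on the log2(TPM + 1) scale, and -1.79 and -1.66 relative. Both were negative under all 9 other settings that kept the gene, down to -1.96 and -2.13. The gene overlaps Rcc1 on the same strand, the gene of a chromatin-bound exchange factor for the GTPase Ran. Rcc1 went the opposite way, at 80.5 TPM with Klf4 and 11.8 TPM in MigRI, and at 8.30 TPM in the cKO-labelled library and 2.45 TPM in control, differences of 2.67 and 1.43 as deposited and 1.88 and 0.69 relative. Reads from sequence that Snhg3 and Rcc1 share could have been counted for either.

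Snhg6 (ENSMUSG00000098234.7, chr1:9941959-9944118, minus strand), host of Snord87, had 189 TPM with Klf4, against 209 TPM in MigRI, a difference of -0.15 as deposited and -0.94 relative. It had 113 TPM in the cKO-labelled library, against 161 TPM in control, a difference of -0.51 as deposited and -1.25 relative. Its end overlaps that of Mcmdc2 on the other strand, a gene of meiotic recombination, which had 6.14 TPM with Klf4 and 18.1 TPM in MigRI, and 5.51 TPM in the cKO-labelled library and 46.9 TPM in control. SMART-seq v4 reads carry no strand, and reads in the overlap could belong to either gene.

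Snhg1 (ENSMUSG00000108414.1, chr19:8723475-8726443, plus strand), host of Snord22 and 7 other annotated snoRNAs, had the highest difference of the 9 in the loss experiment. It had 75.5 TPM in the cKO-labelled library, against 44.4 TPM in control, a difference of 0.75 as deposited and 0.017 relative. With Klf4 it had 88.0 TPM, against 67.7 TPM in MigRI, a difference of 0.37 as deposited and -0.42 relative. Its direction turned with scaling in both experiments. Slc3a2, the heavy chain of amino acid transporters, lies on the other strand 106 bases from Snhg1, and had 446 TPM with Klf4 and 151 TPM in MigRI, a difference of 1.55 as deposited and 0.76 relative. Slc3a2 had 262 TPM in the cKO-labelled library and 210.3 TPM in control, a difference of 0.32 as deposited and -0.42 relative.

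Snhg5 (ENSMUSG00000097195.9, chr9:88521050-88522929, minus strand), host of Snord50a and Snord50b, had nearly the same level in all libraries. It had 68.4 TPM with Klf4, against 70.5 TPM in MigRI, and 62.8 TPM in the cKO-labelled library, against 55.0 TPM in control. Snhg8 (ENSMUSG00000104960.1, chr3:123507552-123508404, minus strand), host of Snora24, was likewise level within each experiment as deposited. It had 15.4 TPM with Klf4, against 15.6 TPM in MigRI, and 39.7 TPM in the cKO-labelled library, against 36.6 TPM in control. As deposited, the differences of Snhg5 were -0.043 and 0.19, and those of Snhg8 were -0.017 and 0.11, which relative to the median gene gave -0.84 and -0.55 for Snhg5 and -0.81 and -0.62 for Snhg8.

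Snhg12 (ENSMUSG00000086290.9, chr4:132308623-132311024, plus strand), whose introns hold Snora16a, Snora44, Snora61 and Snord99, was slightly higher as deposited in both experiments. It had 20.4 TPM with Klf4, against 13.4 TPM in MigRI, and 25.1 TPM in the cKO-labelled library, against 18.8 TPM in control. The differences were 0.58 and 0.40 as deposited and -0.22 and -0.34 relative, so its direction too turned with the scaling. The neighbouring gene Trnau1ap, which encodes a factor of selenocysteine tRNA, had 173 TPM with Klf4 and 105 TPM in MigRI, and 74.0 TPM in the cKO-labelled library and 22.5 TPM in control, differences of 0.71 and 1.67 as deposited and -0.08 and 0.93 relative.

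Across the 9 RNAs, 1 passed 2-fold upward and 0 downward with Klf4 as deposited, against 43.7% higher and 10.3% lower over all measured genes. Relative to the median gene, 0 passed 2-fold upward and 2 downward (Malat1 and Snhg3), against 21.4% and 23.6% of measured genes. The median of the 9 was -0.04, against 0.79 for measured genes, and 8 of the 9 lay below the median gene. For Klf4 cKO over control, 0 passed 2-fold upward and 1 downward as deposited, against 38.4% and 6.92%. Relative to the median gene, 0 were higher and 3 lower (Gas5, Snhg3 and Snhg6), against 12.4% and 16.2%. The median of the 9 was 0.11, against 0.74 for measured genes, and 8 of the 9, all but Snhg1, again lay below the median gene. The 1 exception in the gain experiment was Neat1. No test was made of whether the 9 differ from other genes.

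**Figure D2:**
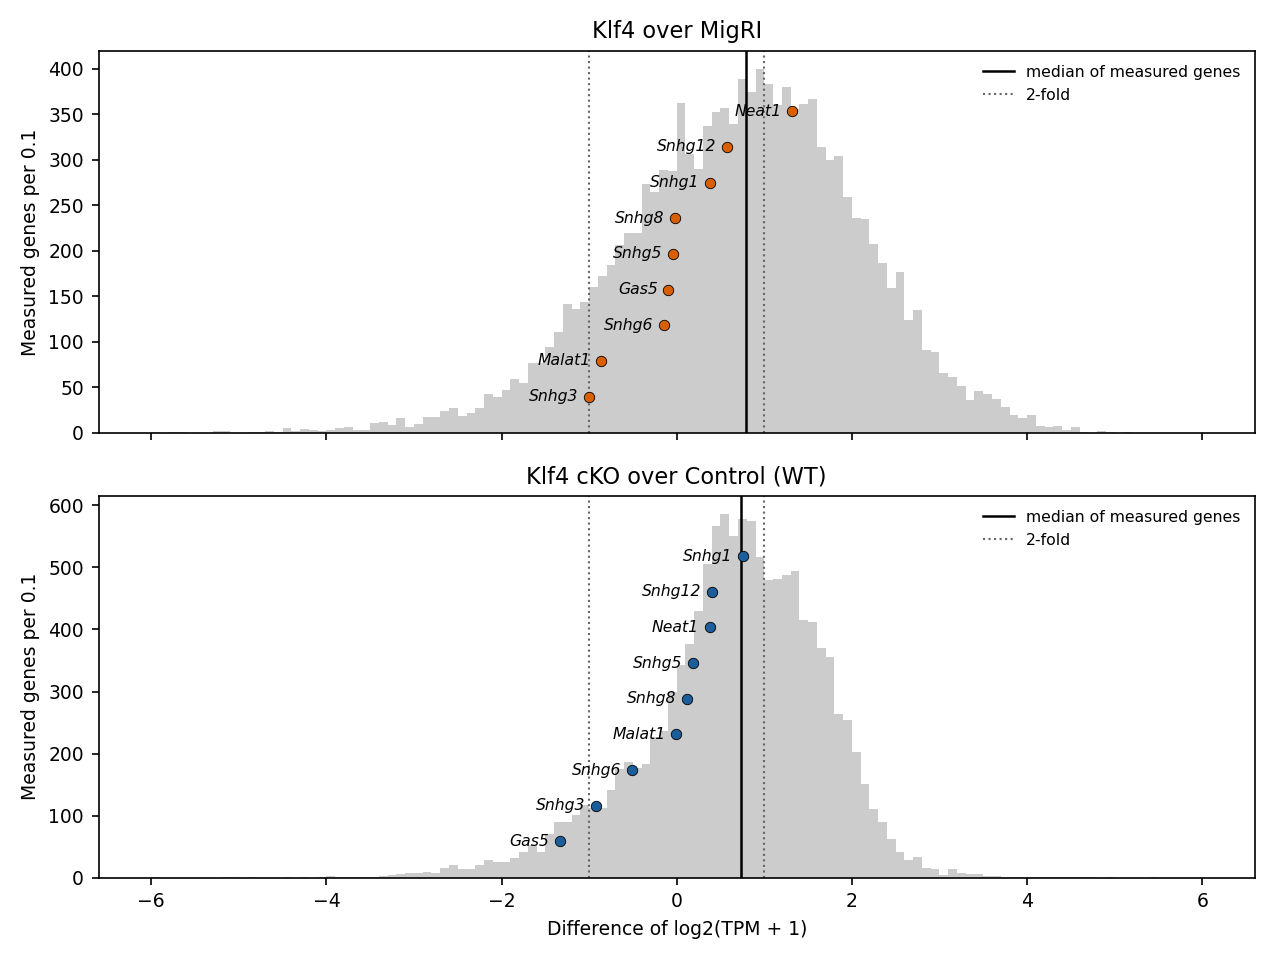
Differences of log2(TPM + 1) in each experiment; grey bars count measured genes per 0.1 log2, the solid line is their median (0.79 above, 0.74 below), dotted lines mark 2-fold, and points are the 9 noncoding RNAs at arbitrary heights. All points but Neat1 above and Snhg1 below lie left of the solid line.

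Differences varied with transcript length and with level over all measured genes, and the part of either in the members' values was not tested. The 1749 measured genes whose longest transcript is under 1000 nucleotides, the class of Snhg3, Snhg6 and Snhg8, had a median difference of -0.34 for Klf4 over MigRI and 0.26 for Klf4 cKO over control. The 5335 genes of 3000 nucleotides or more, the class of Malat1 and Neat1, had medians of 1.00 and 0.64. Against the median of its own length class Malat1 differed by -1.86 and -0.65, and Gas5 by -1.16 and -2.46. Snhg1, Snhg3, Snhg5 and Snhg12 also lay below their class median in both experiments. For Klf4 over MigRI, Snhg6, Snhg8 and Neat1 lay above theirs, by 0.19, 0.32 and 0.32. For Klf4 cKO over control these differed by -0.78, -0.15 and -0.26. The 1451 genes at a mean of 100 TPM or more, the class of Malat1, Gas5 and Snhg6, had a median of -0.30 for Klf4 over MigRI, from which Malat1 differed by -0.57 and Gas5 by 0.20. For Klf4 cKO over control the same level class had a median of 1.04, from which Malat1 differed by -1.04 and Gas5 by -2.38.

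**Figure D3:**
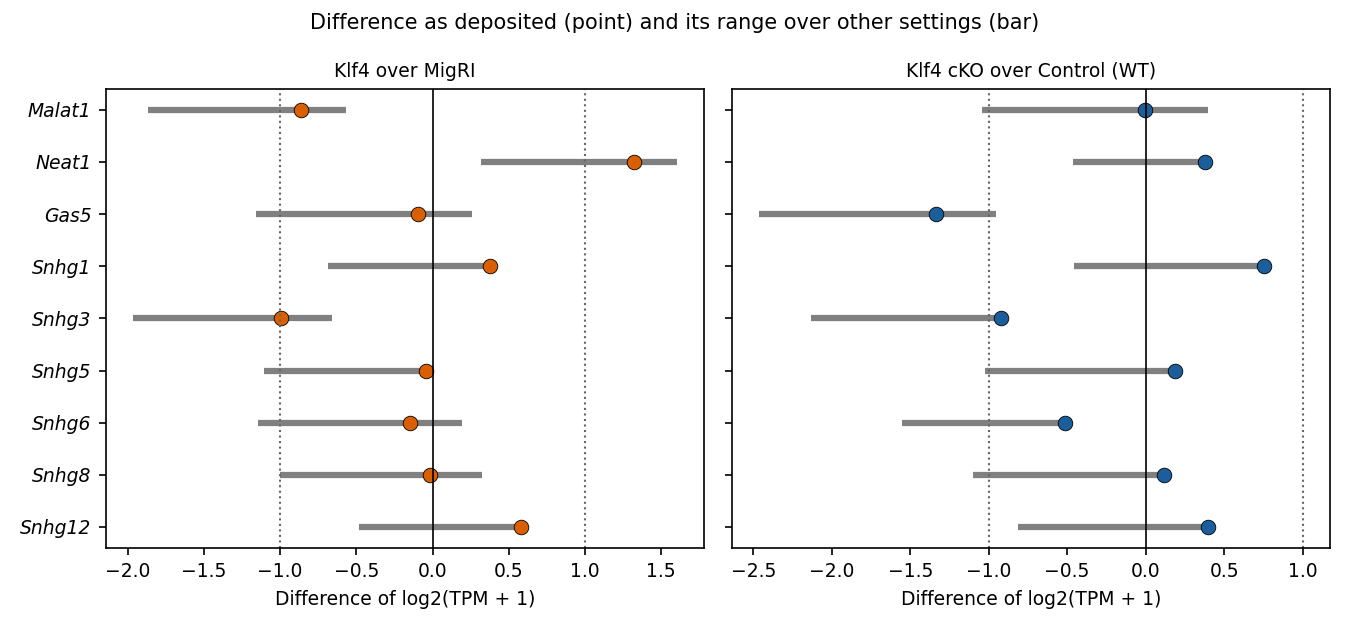
Difference of log2(TPM + 1) of each noncoding RNA as deposited (point) with the range over the other settings (bar; 9 or 10 settings per gene), dotted lines at 2-fold. Bars stay left of 0 for Malat1, Snhg3 and Snhg5 in the gain experiment and for Gas5, Snhg3 and Snhg6 in the loss experiment.

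Of 16 other noncoding snoRNA hosts, 12 were measured, and their differences lay on both sides of 0. With Klf4, 1 was at least 2-fold higher and 2 were lower as deposited, against 43.7% and 10.3% of measured genes, and their median was 0.04. After centring on the median gene, 1 was higher and 5 lower, against 21.4% and 23.6% of measured genes, with a median of -0.76. Snhg18 had 7.001 TPM with Klf4 and 1.25 TPM in MigRI. Snhg20 had 32.1 TPM with Klf4 and 108 TPM in MigRI, and Snhg9 had 1.96 TPM with Klf4 and 6.72 TPM in MigRI. In the cKO-labelled library, 3 were at least 2-fold higher and 3 lower as deposited, against 38.4% and 6.92%, with a median of -0.36. Centred on the median gene, 0 were higher and 7 lower, against 12.4% and 16.2% of measured genes, with a median of -1.09. Snhg4, Snhg16 and Snhg17 were higher, with Snhg4 at 6.78 TPM in that library and 1.51 TPM in control and Snhg17 at 5.89 TPM in the cKO-labelled library and 1.31 TPM in control. Snhg9, Snhg10 and Epb41l4aos were lower. Snhg9 had 4.78 TPM in the cKO-labelled library and 21.0 TPM in control. Snhg10 had 5.24 TPM in the cKO-labelled library and 15.9 TPM in control, and Epb41l4aos had 23.3 TPM in the cKO-labelled library and 66.4 TPM in control. Zfas1, a host of box C/D snoRNAs, had 85.2 TPM with Klf4 and 49.9 TPM in MigRI, and 109 TPM in the cKO-labelled library and 82.3 TPM in control. Snhg10, Snhg16, Epb41l4aos, Zfas1 and, below, Nop10 were named after their values were seen.

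Messenger RNAs that host snoRNAs or share the TOP start were also followed. Of 18 protein-coding snoRNA hosts, 11 were at least 2-fold higher and 1 lower in the cKO-labelled library as deposited, against 38.4% and 6.92% of measured genes, with a median of 1.36. Minus the median gene's difference, 2 were higher and 4 lower, against 12.4% and 16.2% of measured genes, with a median of 0.62. Eif4a1, a translation initiation helicase, had 201 TPM there and 56.6 TPM in control, and the ribosomal protein gene Rpl3 had 630.4 TPM in the cKO-labelled library and 184 TPM in control. Of 17 TOP-mRNA translation factors found, 11 were higher and 0 lower as deposited, with a median of 1.26. After centring on the median gene, 3 were higher and 2 lower, against the same 12.4% and 16.2%. Eif3e, a subunit of initiation factor eIF3, had 159 TPM in the cKO-labelled library and 39.2 TPM in control. The 83 measured ribosomal protein genes had 20 higher, 11 lower and a median of -0.10 as deposited. After centring on the median gene, 4 were higher and 32 lower, against the same 12.4% and 16.2%. For Klf4 over MigRI the medians were 0.26 for protein-coding hosts, 0.71 for TOP translation factors and -0.60 for ribosomal protein genes, with 2, 3 and 2 genes higher and 2, 0 and 16 lower as deposited, against 43.7% and 10.3% of measured genes. By relative difference, 1, 1 and 0 were higher and 7, 4 and 62 lower, against 21.4% and 23.6% of measured genes. No difference between these lists was tested.

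**Figure D4:**
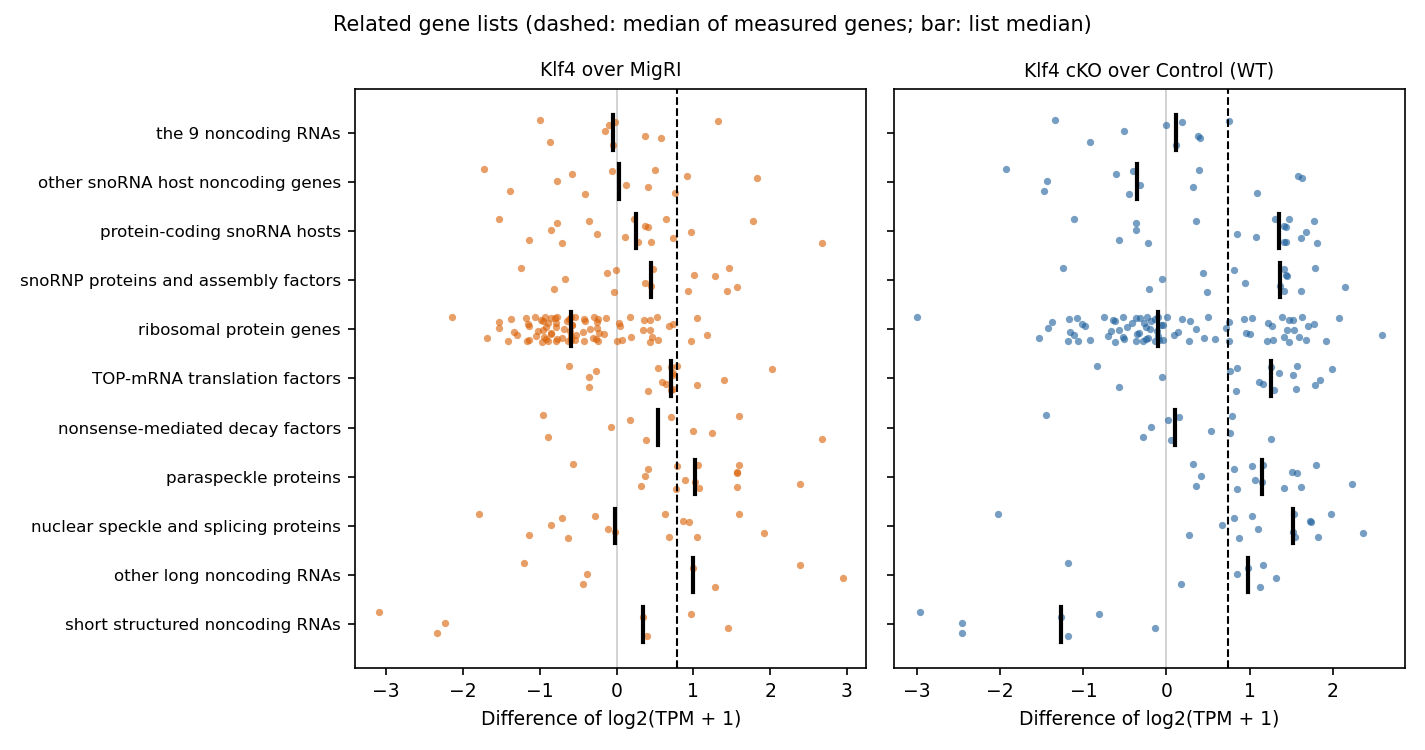
Differences of log2(TPM + 1) of the 9 noncoding RNAs and of related gene lists, 1 point per measured gene, with the list median (bar) and the median of all measured genes (dashed). In the right panel the bar of the 9 RNAs is at 0.11 and that of protein-coding snoRNA hosts at 1.36.

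Of 15 proteins that package snoRNAs or assemble the particles, 8 were at least 2-fold higher and 1 lower in the cKO-labelled library as deposited, against 38.4% and 6.92% of measured genes, with a median of 1.37. After centring, 2 were higher and 1 lower, against 12.4% and 16.2%. Fbl, the methyltransferase of box C/D particles, had 134 TPM in that library and 42.8 TPM in control, and Ruvbl1, an assembly ATPase, had 33.7 TPM in the cKO-labelled library and 6.79 TPM in control. The lower one was Nop10, a small H/ACA protein, which had 353 TPM in the cKO-labelled library and 835 TPM in control, and 244 TPM with Klf4 and 578 TPM in MigRI. With Klf4, 5 of the 15 were higher and 1 lower as deposited, against 43.7% and 10.3%. After centring 0 were higher and 3 lower with Klf4, against 21.4% and 23.6%. Nonsense-mediated decay factors, which degrade many spliced host RNAs, numbered 10. With Klf4, 3 were higher and 0 lower as deposited, against 43.7% and 10.3% of measured genes. In the cKO-labelled library 1 was higher and 1 lower as deposited, against 38.4% and 6.92%. Once centred, 1 was higher and 2 lower with Klf4, against 21.4% and 23.6%. In the cKO-labelled library 0 were higher and 2 lower once centred, against 12.4% and 16.2%. Upf2, a core factor, had 3.78 TPM in the cKO-labelled library and 12.1 TPM in control.

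Of the snoRNAs inside the hosts, 27 genes are annotated within the bounds of the 7, and 10 of these symbols were in the tables, of which 5 were measured. Snord22 in Snhg1 had 20.3 TPM with Klf4 and 18.6 TPM in MigRI, and 10.1 TPM in the cKO-labelled library and 2.07 TPM in control, differences of 0.11 and 1.85 as deposited and -0.68 and 1.11 relative. Snord99 in Snhg12 had 4.33 TPM with Klf4 and 6.80 TPM in MigRI, and 7.72 TPM in the cKO-labelled library and 2.49 TPM in control. Snora61 in Snhg12 had 1.43 TPM with Klf4 and 3.03 TPM in MigRI, and 0.643 TPM in the cKO-labelled library, and was listed at 0 in control. Snord47 in Gas5 stayed at or below 1.02 TPM in all 4 libraries. Mature snoRNAs are short and carry no poly(A) tail, and reads from unspliced host introns cannot be told apart from them here.

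Snora73a and Snora73b, the pair inside Snhg3, are printed because they are near-identical copies. The copies are identical at 198 of 205 positions, 96.6%, and the 7 that differ are in capitals (Snora73a at chr4:132352775-132352979 and Snora73b at chr4:132352322-132352526, both minus strand, GENCODE vM21).
Snora73a: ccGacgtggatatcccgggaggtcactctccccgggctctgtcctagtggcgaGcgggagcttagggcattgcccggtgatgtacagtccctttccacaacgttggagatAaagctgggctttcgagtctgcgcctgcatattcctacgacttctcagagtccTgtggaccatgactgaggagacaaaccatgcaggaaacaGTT
Snora73b: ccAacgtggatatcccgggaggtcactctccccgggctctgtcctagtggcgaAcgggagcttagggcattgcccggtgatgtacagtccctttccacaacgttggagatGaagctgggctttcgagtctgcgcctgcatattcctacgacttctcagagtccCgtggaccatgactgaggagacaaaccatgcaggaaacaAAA
Snora73a had 24.2 TPM with Klf4 and 7.26 TPM in MigRI, while Snora73b had 25.7 TPM with Klf4 and 42.2 TPM in MigRI. Snora73a had 0.894 TPM in the cKO-labelled library and 0.949 TPM in control, and Snora73b had 14.0 TPM in the cKO-labelled library and 20.5 TPM in control. The values of both copies are uncertain, since reads could have been split between them.

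Proteins of the nuclear bodies to which Malat1 and Neat1 belong were set beside them. Of 15 paraspeckle proteins, 8 were at least 2-fold higher and 0 lower with Klf4, and 10 and 0 in the cKO-labelled library, with medians of 1.02 and 1.15 as deposited, which turned to -0.037 for Klf4 over MigRI when centred on genes of like length and to -0.067 for Klf4 cKO over control when centred on genes of like level. Of measured genes 43.7% and 38.4% were higher as deposited, and 10.3% and 6.92% lower. After centring on the median gene, 1 paraspeckle protein was higher and 1 lower with Klf4, against 21.4% and 23.6% of measured genes. In the cKO-labelled library 2 were higher and 0 lower after centring, against 12.4% and 16.2%. Rbm14, a coactivator needed for paraspeckles, had 32.1 TPM with Klf4 and 5.30 TPM in MigRI. Nono had 126 TPM with Klf4 and 41.7 TPM in MigRI, and 43.5 TPM in the cKO-labelled library and 13.5 TPM in control. Of 15 speckle and splicing proteins, 3 were higher and 2 lower with Klf4, and 10 higher and 1 lower in the cKO-labelled library as deposited, against 43.7% and 10.3%, and 38.4% and 6.92%, of measured genes. On the relative scale, 1 was higher and 6 lower with Klf4, against 21.4% and 23.6% of measured genes. In the cKO-labelled library 3 were higher and 1 lower on that scale, against 12.4% and 16.2%. Son, a large scaffold protein of speckles, was the lower one there, at 49.1 TPM in the cKO-labelled library and 202 TPM in control, and was lower with Klf4 too, at 15.3 TPM against 55.5 TPM in MigRI. Srsf2, a splicing factor, went the other way in both, at 392 TPM with Klf4 and 130 TPM in MigRI, and 220.2 TPM in the cKO-labelled library and 42.0 TPM in control.

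Likeness of pattern was measured as the Euclidean distance between log2(TPM + 1) profiles over the 4 libraries, each minus its own mean, among 3407 protein-coding genes at a mean of 20 TPM or more. With 4 points this is a description and carries no test. The nearest genes to Malat1 were Rps15a (distance 0.087), a ribosomal protein gene, Pfdn5 (0.14), a prefoldin subunit, and Btg2 (0.27), an antiproliferative factor. Btg2 had 84.3 TPM with Klf4 and 159 TPM in MigRI, and 450.0 TPM in the cKO-labelled library and 478 TPM in control. Nearest to Neat1 were Ptms (0.35), Btg1 (0.52) and AA467197 (0.65), and nearest to the mean profile of the 7 hosts were Rbm39 (0.18), a splicing cofactor, Esf1 (0.19), a nucleolar protein, and Ccdc25 (0.20). Among the 9 themselves the closest pair was Snhg1 and Snhg5 (0.53), while Malat1 and Neat1 lay 1.78 apart and Gas5 was closest to Snhg3 (0.87).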

How the data were processed

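The authors deposited TPM per gene, with a separate table for each of the 4 libraries. Per the labels' protocols, TRI Reagent served for RNA extraction and a SMART-seq v4 kit for the libraries. The submitters' processing notes name Trimmomatic, HISAT2, StringTie, edgeR and mm10. The tools' roles, their versions and the gene annotation were not given in the sources used here. TPM is scaled to a fixed total and keeps no read depth, so its precision is unknown.

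Among the control symbols 26 were dates. Of these 22 were mapped back, and the 4 genes behind 2 ambiguous dates were left out throughout. Differences are log2(TPM + 1) with a pseudocount of 1, which understates the change of low genes, and 2-fold (1 log2) was called. With 1 library per group no test was made. GENCODE vM21 on GRCm38 (mm10) gave coordinates and lengths, with a length for 93.6% of measured genes, taken from the longest transcript.

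Other settings were pseudocounts of 0.1 and 5, centring on the median gene or on genes of the same length class (bounds 1000 and 3000 nucleotides), median of ratios scaling, quantile normalization, and rescaling without receptor segment, ribosomal protein and mitochondrial genes, without the 50 most abundant genes, or to genes of at least 1000 nucleotides. Filters of 0, 5 and 10 TPM were tried on the background. Centring on the same level class (bounds 10 and 100 TPM) was added after seeing the data.

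Named genes were the 9 RNAs, Klf4, the 3 largest differences in each list at 5 TPM or more, snoRNAs within the hosts, coding neighbours within 100000 bases and the 3 nearest profiles. Values are given for some of these. The members and lists were chosen with earlier results of these data known. Scripts (Python 3.11.15, pandas 2.3.3) were tested on simulated data.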

Additional observations from a re-analysis of the deposited data

How the results depend on the processing

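The median difference of the 9 RNAs for Klf4 over MigRI, -0.043 as deposited, was -0.84 relative to the median gene, -1.03 with median of ratios scaling, -0.45 with quantile normalization, -0.21 without the 50 most abundant genes, -0.21 over the 6 RNAs left when rescaled to genes of at least 1000 nucleotides, and -0.66 and -0.54 against the same length and level class. For Klf4 cKO over control, 0.11 as deposited, it was -0.62, -0.74, -0.66, -0.014, -0.17, -0.73 and -1.04 in the same order. The 1 RNA at least 2-fold higher with Klf4 (Neat1) became 0 with a pseudocount of 5, under both scalings, and under all 3 centrings. The 0 at least 2-fold lower with Klf4 became 1 with a pseudocount of 0.1, with quantile normalization, without receptor segment, ribosomal protein and mitochondrial genes, with genes of at least 1000 nucleotides and against the level class. It became 2 relative to the median gene and without the 50 most abundant genes, 3 against the length class and 5 with median of ratios scaling. For the cKO-labelled library, the count of 1 lower (Gas5) became 2 with quantile normalization, without the 50 most abundant genes and against the length class. It became 3 relative to the median gene and with median of ratios scaling, and 6 against the level class. Gas5 stayed past 2-fold in all of these but quantile normalization, where the 2 were Snhg3 and Snhg6. Without a filter, 16.99% and 13.3% of genes passed 2-fold in either direction, against 53.9% and 45.3% of measured genes. The paraspeckle protein medians turned to -0.037 (Klf4 over MigRI, length class) and -0.067 (Klf4 cKO over control, level class). The causes were not tested. No paired analysis was possible because each group holds 1 library, and leaving out a library ends its comparison.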

Other observations

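Short structured noncoding RNAs were lower in the cKO-labelled library than in control as a list, which counts the near-identical copies Rn7s1 and Rn7s2 separately. Of 7 measured, 0 were at least 2-fold higher and 5 lower as deposited, against 38.4% and 6.92% of measured genes. The median of the 7 was -1.26. Both copies are among the 5, with almost the same values, and are not independent counts. Rnu11, also among the 5, was low, at 2.37 TPM in the cKO-labelled library and 6.68 TPM in control. Relative to the median gene, 0 were higher and 6 lower, against 12.4% and 16.2%. The 6 again count both copies, and include Terc, at 0.971 TPM in the cKO-labelled library and 2.45 TPM in control. With Klf4, 1 was higher and 3 lower as deposited, against 43.7% and 10.3%. On the relative scale 0 were higher and 3 lower with Klf4, against 21.4% and 23.6%. Rn7sk, the RNA that holds the elongation factor P-TEFb inactive, had 25.3 TPM in the cKO-labelled library and 204 TPM in control, and 3.13 TPM with Klf4 and 19.8 TPM in MigRI. Rn7s1, an RNA of the signal recognition particle, had 69.6 TPM in the cKO-labelled library and 386 TPM in control, but 37.4 TPM with Klf4 and 28.1 TPM in MigRI. The value of each is uncertain because Rn7s2 is a near-identical copy, which had 69.5 TPM in the cKO-labelled library and 388 TPM in control, and 36.2 TPM with Klf4 and 28.2 TPM in MigRI. Rpph1, the RNA of RNase P, the enzyme that cuts the Malat1 3′ end, had 16.3 TPM with Klf4 and 147 TPM in MigRI, and 9.77 TPM in the cKO-labelled library and 24.9 TPM in control. These RNAs carry no poly(A) tail, and what priming contributed was not tested.

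Among other long noncoding RNAs, 3 of 7 measured were at least 2-fold higher and 1 lower with Klf4, and 3 were higher and 1 lower in the cKO-labelled library, where 43.7% and 10.3%, and 38.4% and 6.92%, of measured genes were. Relative to the median gene, 2 were higher and 3 lower with Klf4, against 21.4% and 23.6% of measured genes. In the cKO-labelled library 0 were higher and 1 lower on that scale, against 12.4% and 16.2%. H19, an imprinted RNA of fetal tissue, had 21.0 TPM with Klf4 and 1.85 TPM in MigRI, with 2.34 TPM in the cKO-labelled library and 1.96 TPM in control. Dleu2, a microRNA host, was the lower one in both, at 1.199 TPM with Klf4 and 4.06 TPM in MigRI, and at 5.24 TPM in the cKO-labelled library and 13.2 TPM in control. Mir155hg, host of the T cell microRNA miR-155, had 7.59 TPM in the cKO-labelled library and 2.45 TPM in control, and 7.89 TPM with Klf4 and 10.6 TPM in MigRI.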
